A study of Mus musculus with 12 samples.

Results

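RNAi labelled as directed at Mbd2 was compared with control RNAi in E14 mouse embryonic stem (ES) cells on 4 of the 12 arrays of the series, the 2 labelled Mbd2 KD and the 2 labelled EGFP KD. The 4 arrays were chosen by their labels alone. KD stands for knockdown with esiRNAs, short interfering RNAs made by enzymatic digestion of a long double-stranded RNA, and the EGFP esiRNAs served as the control. In both groups cells were grown on gelatin without feeder cells, in serum and LIF, transfected in 1 dish per sample and collected 48 hr later. The other 8 arrays carried Dnmt1 KD, Tet1 KD, Mbd3 KD and Chd4 KD, 2 arrays each, and are used here only for the spread between arrays and as a frame for single values. A transient KD lowers the mRNA in a population of cells, so fewer depleted cells and less depletion per cell cannot be told apart.

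MBD2 is a protein with a methyl-CpG binding domain, which recognises CpG dinucleotides carrying 5-methylcytosine. With its close relative MBD3 it forms alternative versions of the NuRD complex, which joins histone deacetylases (HDAC1 and HDAC2) to a nucleosome remodeler (CHD4 in ES cells) and is known mainly as a repressor. DNMT1 copies methylation after replication, and TET1 oxidises 5-methylcytosine to 5-hydroxymethylcytosine. The series set out to compare the effects of these factors on mRNA levels, and the present comparison asks which mRNAs differed when Mbd2 was the target.

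Each array measured Cy3-labelled cRNA on 39429 probes, and values are log2 of the signal divided by that array's 75th percentile, so that 0 is the level of that percentile. A value of -4.86 is the lowest level distinguished. Levels of different probes are not comparable, and only differences for the same probe are read. Between 79.6% and 91.6% of probes were well above background on the 4 arrays. All 10 ES cell markers examined, Pou5f1, Nanog and Zfp42 among them, were well above background on the 4 arrays, and their summed level lay between 7.48 and 7.67. The Nanog probe was nevertheless close to the lowest level, at -4.59 and -4.09 in EGFP KD and -3.86 and -4.43 in Mbd2 KD. Of 8 fibroblast markers 6 were also above background, with a summed level between 2.16 and 2.46. The range was 3.22 to 3.71 for 8 primitive endoderm markers (7 above background) and 1.54 to 1.91 for 7 trophectoderm markers (4 above background). Each sum is weighted towards its brightest probes, so it is read only between arrays and not between marker sets. Among the ES cell markers, the probes of Pou5f1, Zfp42, Esrrb, Dppa5a and Utf1 were not free of saturation across the 4 arrays.

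The level of the targeted mRNA was low on 1 of the 2 arrays labelled Mbd2 KD. Probe A_66_P133043 for Mbd2 read -0.84 and -1.09 on EGFP KD replicates 1 and 2, -1.19 for the array labelled Mbd2 KD replicate 1, and -2.73 for its partner, labelled Mbd2 KD replicate 2. Relative to the EGFP KD mean these last values correspond to 85.1% and 29.3% of the control signal. The log2 fold change of the group was -1 with a standard error (SE) of 0.6, and its limma adjusted p was 1. The spot of this probe lies in row 26 and column 81 of the array. After the subtraction of local medians described below for position on the array, its log2 fold change was -0.82. The other Mbd2 probe, A_55_P2036526, read -0.72 and -0.83 in EGFP KD and -0.85 and -0.84 in Mbd2 KD, which is 95% and 95.4% of the control mean, so it was below both control arrays by at most 0.13 and did not show the low value of the first probe on replicate 2. Taken within its slide, A_66_P133043 on replicate 2 was 2 log2 units below the mean of the other 3 arrays, the 10th lowest of 35908 probes ranked in this way. The same difference on replicate 1, against the other arrays of its own slide, was -0.15.

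Tet1 mRNA was low on the other array. Probe A_55_P2122997 for Tet1 read 2.13 and 2 in EGFP KD, 0.28 for the array with the label Mbd2 KD replicate 1, and 1.88 for replicate 2. These values correspond to 29% and 87.9% of the control signal, and the group log2 fold change was -0.98 (SE 0.65, limma adjusted p of 1). After local subtraction it was -0.85. The second Tet1 probe, A_51_P512172, read -0.1 and 0.35 in EGFP KD and -1.05 and 0.38 in Mbd2 KD, so it too was low only on replicate 1. Within slide 1, A_55_P2122997 on replicate 1 ranked 13th lowest of 35926 probes, at -1.64 relative to the other arrays there. The array labelled Tet1 KD replicate 1 read -2.71 for A_66_P133043 and 2.05 for A_55_P2122997, whereas the array labelled Tet1 KD replicate 2 read -1.19 and 0.26. Thus 1 array of each label read low for A_66_P133043 and the other read low for Tet1. The second Mbd2 probe did not follow the first, and on the arrays labelled Tet1 KD it read -0.97 on replicate 1 and -1.38 on replicate 2. Measurements of these KDs by other assays were not analysed here. What each dish received beyond its label was not tested, and all arrays are named below by their labels.

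**Figure D1:**
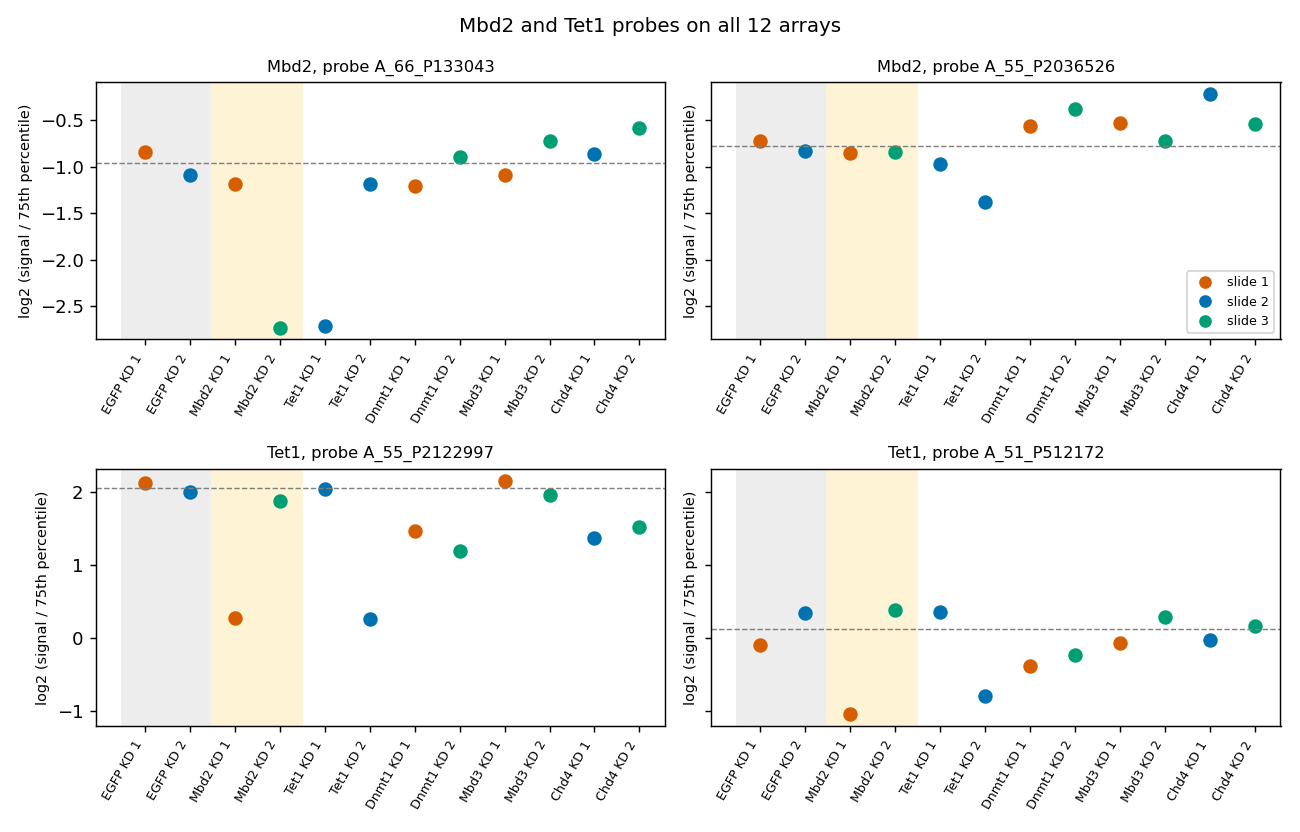
Level of the 2 Mbd2 probes (top) and the 2 Tet1 probes (bottom) on all 12 arrays, as log2 of signal over the array's 75th percentile; each point is 1 array, coloured by slide, the dashed line is the EGFP KD mean, and the grey and yellow bands mark EGFP KD and Mbd2 KD. A_66_P133043 reads -2.73 on Mbd2 KD replicate 2 and -2.71 on Tet1 KD replicate 1, and A_55_P2122997 reads 0.28 on Mbd2 KD replicate 1 and 0.26 on Tet1 KD replicate 2.

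The 2 arrays labelled Mbd2 KD differed from each other by more than either differed from its nearest array of another label. Their median absolute log2 difference over genes was 0.326, against 0.288 for the EGFP KD pair. The arrays were printed 4 to a slide, and the scanner records place them on 3 slides. The Dnmt1 KD and Mbd3 KD pairs, which like the Mbd2 KD pair span slides 1 and 3, differed by more, at 0.425 and 0.372. The Chd4 KD pair, on slides 2 and 3, differed by 0.255, and the Tet1 KD pair, both on slide 2, by 0.155. Mbd2 KD replicate 1 shared slide 1 with EGFP KD replicate 1 and was nearest to it (0.136). Mbd2 KD replicate 2 lay on slide 3, which held no EGFP KD array, and was nearest to Mbd3 KD replicate 2 on that slide (0.159). For each of the 2 Mbd2 KD arrays the 3 nearest arrays were the other 3 of its own slide. The median distance of a gene from the EGFP KD mean was 0.159 on replicate 1 and 0.31 on replicate 2. The comparison of replicate 2 with control therefore crosses slides, which Dnmt1 KD and Mbd3 KD link with 1 array each on slides 1 and 3. With slide as a fixed block 0 genes were called, and the log2 fold changes were -1.07 for A_66_P133043 of Mbd2 and -1.14 for A_55_P2122997 of Tet1.

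**Figure D2:**
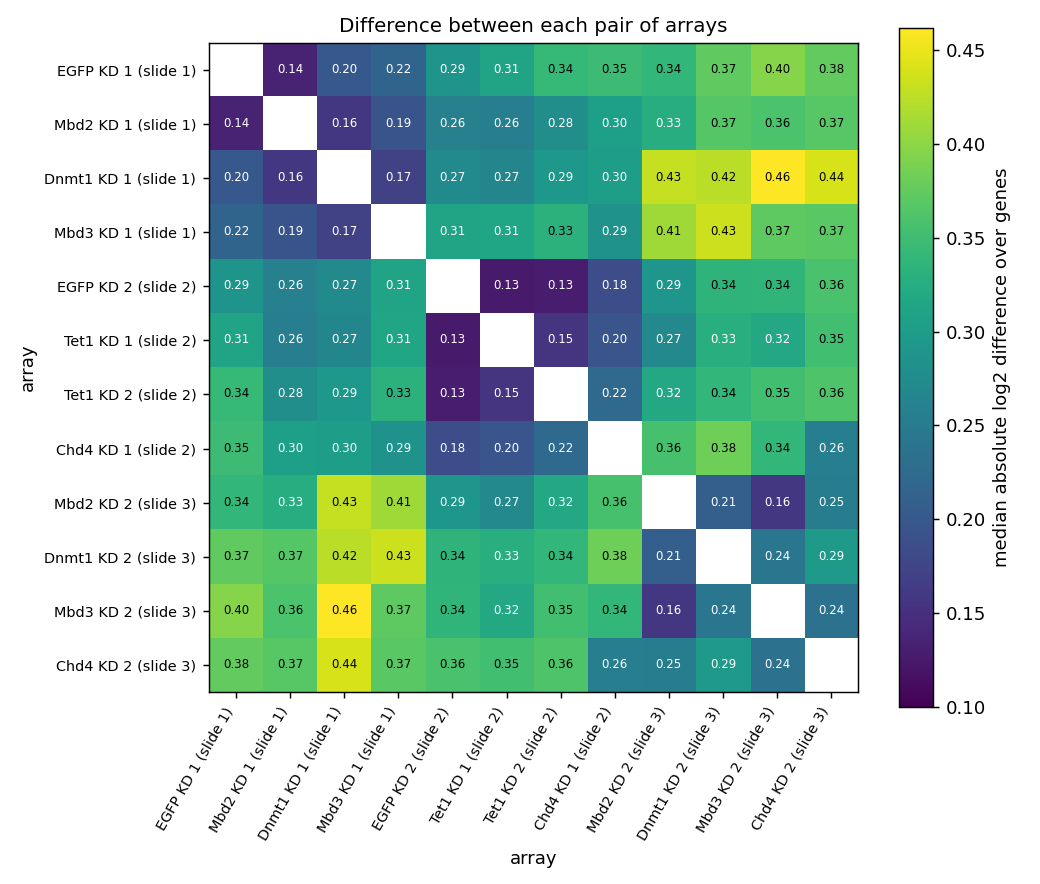
Median absolute log2 difference over genes for every pair of the 12 arrays, ordered by slide; darker cells are nearer pairs. Mbd2 KD replicate 1 is nearest to EGFP KD replicate 1 on slide 1 (0.136), and Mbd2 KD replicate 2 to Mbd3 KD replicate 2 on slide 3 (0.159).

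No gene passed the test of Mbd2 KD against EGFP KD. Of 29839 genes tested with limma, 0 had an adjusted p under 0.05 (0%), and the smallest adjusted p was 1. At an unadjusted p under 0.05, 317 genes were higher (1.06%) and 296 were lower (0.992%). Over all genes the median absolute log2 fold change was 0.189 and the median SE was 0.274. With 2 arrays a group the comparison resolves only large and even differences, and the absence of calls does not show that mRNA levels were alike. Counting arrays instead, both Mbd2 KD arrays lay above both EGFP KD arrays for 3227 genes (10.9%) and below both for 3530 genes (11.9%). The Mbd2 KD arrays were the highest 2 of all 12 arrays for 124 genes (0.421%) and the lowest 2 for 137 genes (0.465%). Here the 29487 genes with a value on all 12 arrays were counted. Spread between arrays alone also places some genes outside the range or at the edge of the 12, and these counts carry no test.

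**Figure D3:**
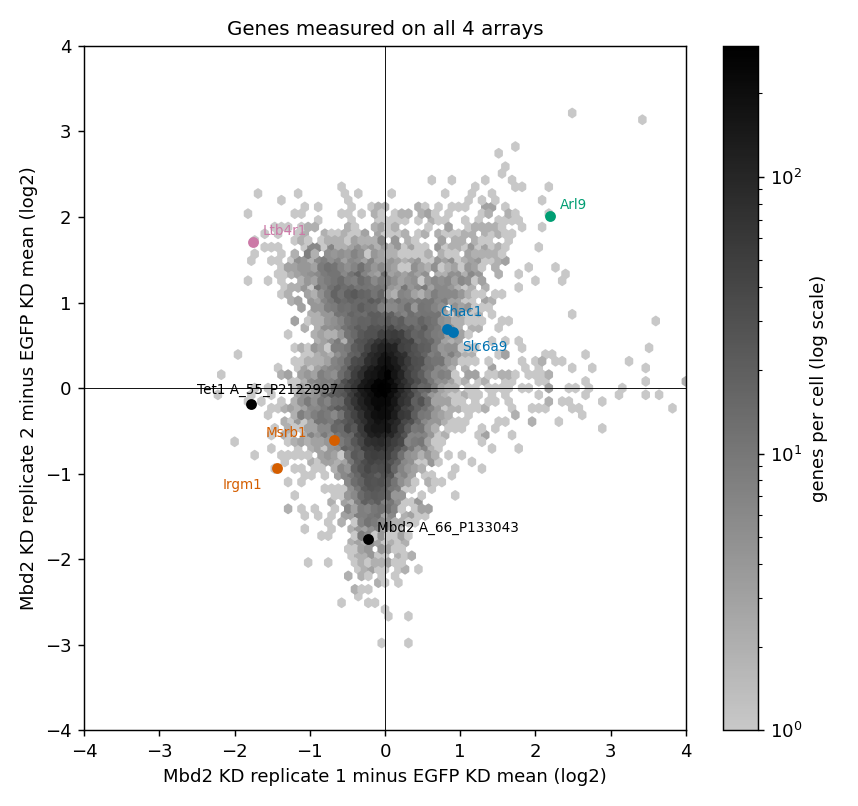
Difference of each gene from the EGFP KD mean on Mbd2 KD replicate 1 (horizontal) and replicate 2 (vertical), in log2 units, for 23924 genes well above background and unsaturated on all 4 arrays; grey cells count genes on a log scale, the axes stop at 4, and labelled points are genes and probes described in the text. The cloud is wider on the vertical axis, the Mbd2 probe lies at -0.23 and -1.77, and the Tet1 probe at -1.78 and -0.19.

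Among genes with a symbol the smallest unadjusted p belonged to Irgm1, an interferon-inducible GTPase of innate defence, which was lower on both Mbd2 KD arrays. Irgm1 read -1.66 and -1.82 in EGFP KD and -3.17 and -2.66 in Mbd2 KD (log2 fold change -1.18, SE 0.18, limma unadjusted p of 0.0003056, adjusted p of 1). Both Mbd2 KD arrays were below the other 10. The arrays labelled Tet1 KD, at -2.46 and -2.51, came next, the Dnmt1 KD and Mbd3 KD arrays were between -1.61 and -1.69, and the Chd4 KD arrays were the highest at -0.29 and -0.62. Slc6a9, the GlyT1 glycine transporter, was higher on both and stood at -0.02 and -0.1 in EGFP KD and 0.84 and 0.59 in Mbd2 KD (log2 fold change 0.78, SE 0.12, limma unadjusted p of 0.0003297, adjusted p of 1). Again both Mbd2 KD arrays were above the other 10, of which the highest read 0.48. The Dnmt1 KD, Tet1 KD and Mbd3 KD arrays, between 0.28 and 0.48, also lay above both EGFP KD arrays. The Chd4 KD arrays, at -0.3 and -0.17, lay below both.

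Since MBD2 reads methylated CpGs, the DNA upstream of these genes is shown, with CpG dinucleotides in capitals, as the 250 bases before the start site in RefSeq (GRCm38.p6). For Irgm1 the window is chr11:48871421-48871670 on the minus strand, and for Slc6a9, the first of 3 start sites listed, it is chr4:117835008-117835257 on the plus strand.
Irgm1: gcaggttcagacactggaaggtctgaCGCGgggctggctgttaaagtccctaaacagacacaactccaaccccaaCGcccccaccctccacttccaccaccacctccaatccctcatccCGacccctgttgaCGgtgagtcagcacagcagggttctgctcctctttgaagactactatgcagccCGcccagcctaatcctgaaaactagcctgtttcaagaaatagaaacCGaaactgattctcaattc
Slc6a9: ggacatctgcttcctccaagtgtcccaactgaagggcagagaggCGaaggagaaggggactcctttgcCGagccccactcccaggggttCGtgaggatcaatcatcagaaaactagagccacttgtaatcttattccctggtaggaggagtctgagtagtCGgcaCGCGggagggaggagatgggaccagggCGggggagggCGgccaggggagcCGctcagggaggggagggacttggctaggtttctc
The Irgm1 window held 7 CpGs and the Slc6a9 window 9. Of 27025 mouse promoter windows of this length, 46.5% held at least 7 and 40.7% at least 9, so both lie near the middle of all listed windows. Methylation was not measured on these arrays. Counted over 300 bases (250 before to 50 after the start), the median was 17 CpGs for all 13077 genes measured on the 4 arrays with a listed window, 17 for genes above and 17 for genes below the EGFP KD range. Of those 13077 genes, 66.6% held 10 or more over the 300 bases. This share cannot be set against those of the listed windows, which were counted over 250 bases and at other thresholds. For genes with the Mbd2 KD arrays as the highest 2 of 12 the median was 22, and for the lowest 2 it was 15. The first of these sets had the higher signal in EGFP KD, with a median of 0.43, against -1.64 for the second and -0.93 for all.

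Phgdh, Psat1, Chac1 and Tars2, all tied to amino acid metabolism, read higher on both Mbd2 KD arrays than on both control arrays. These 4 genes were picked after their values were seen, so they stand for no wider group and no test over them is given. Phgdh, the first enzyme of serine synthesis, read 3.47 and 2.9 in EGFP KD and 3.88 and 3.77 in Mbd2 KD, the highest 2 of the 12 arrays. Psat1, the next enzyme, read 3.96 and 3.83 against 4.5 and 4.36, but the array labelled Mbd3 KD replicate 2 was higher at 4.94. The Dnmt1 KD, Tet1 KD and Mbd3 KD arrays, from 4.03 to 4.94, all lay above both EGFP KD arrays for Psat1. The Chd4 KD arrays read 3.76 and 4. Chac1, a glutathione-degrading enzyme, read 1.53 and 1.51 against 2.35 and 2.21, and the Mbd3 KD pair was as high at 2.29 and 2.31. For Chac1 the Tet1 KD arrays (2.21 and 2.04) and the Dnmt1 KD arrays (2.12 and 1.68) were also above both EGFP KD arrays. The Chd4 KD arrays were below them at 1.25 and 1.11. Tars2, the mitochondrial threonyl-tRNA synthetase, read 3.3 and 3.15 against 3.62 and 3.56, again the highest 2 of 12. Their log2 fold changes were 0.63 (SE 0.19), 0.53 (SE 0.18), 0.76 (SE 0.15) and 0.37 (SE 0.15) in that order, with adjusted p of 1 in limma.

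Among lower genes with strong signal, Msrb1, a selenoprotein that repairs oxidised methionine, read 4.02 and 3.56 in EGFP KD and 3.11 and 3.17 in Mbd2 KD, the lowest 2 of 12 arrays (log2 fold change -0.65, SE 0.17). Capn3, a calcium-dependent protease best known from muscle, read 0.69 and 0.78 against 0.21 and 0.35, also the lowest 2 of 12 (log2 fold change -0.46, SE 0.12, or -0.29 after the subtraction of local medians described below for position on the array). For both genes the Tet1 KD arrays came next, at 3.28 and 3.27 for Msrb1 and at 0.5 and 0.44 for Capn3. For Msrb1 the Dnmt1 KD arrays (3.32 and 3.3) and the Mbd3 KD arrays (3.42 and 3.33) also lay below both EGFP KD arrays. The Chd4 KD arrays read 3.78 and 3.44, and EGFP KD replicate 1 was the highest array for this gene.

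**Figure D4:**
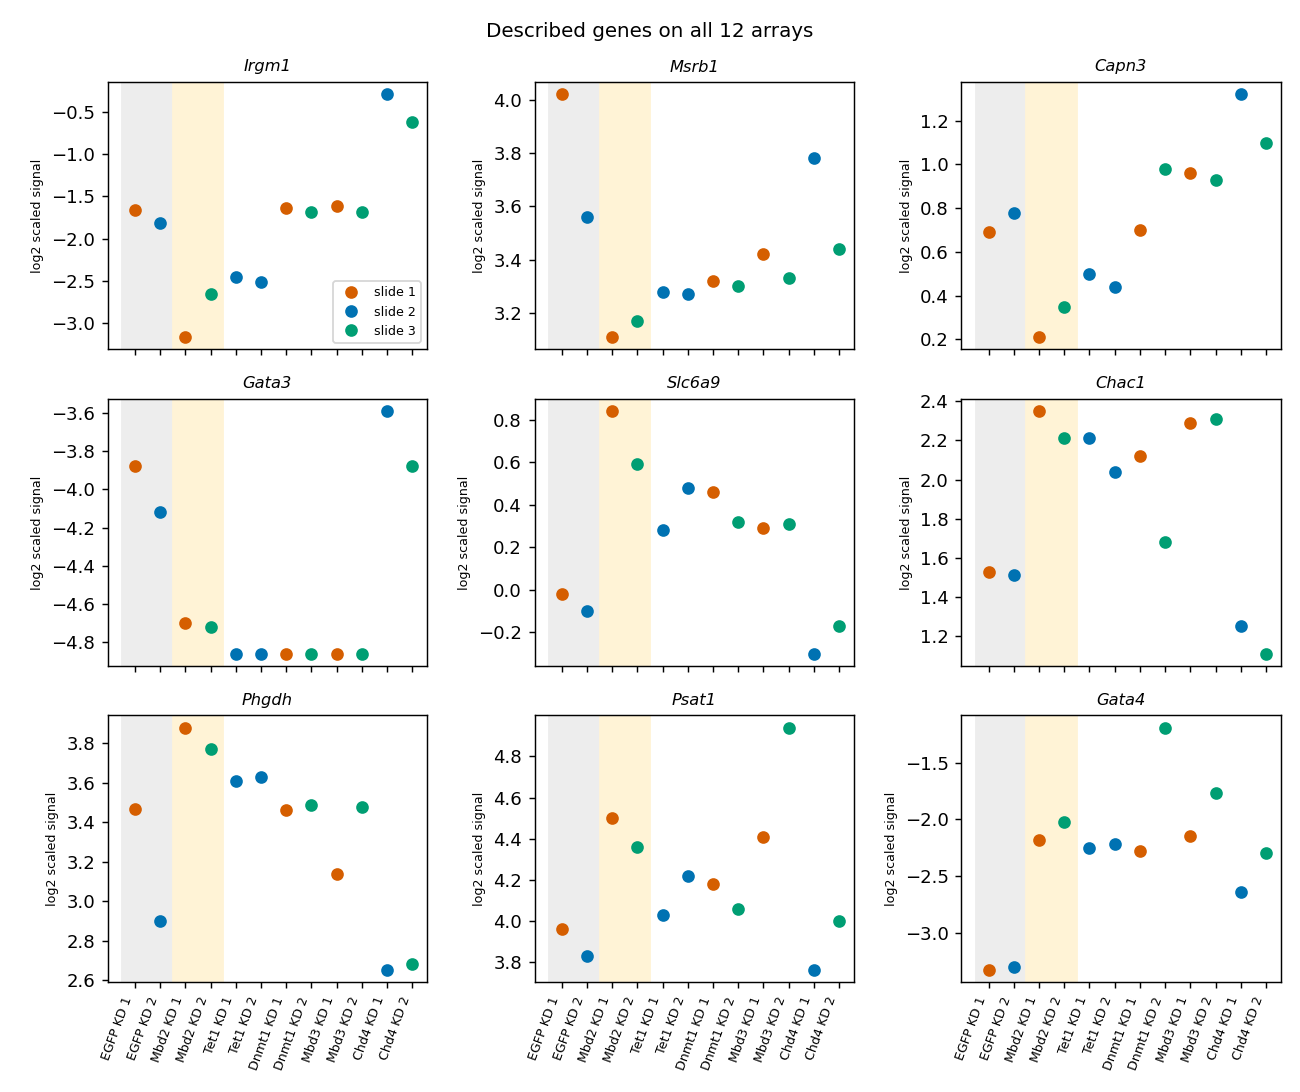
Log2 scaled signal of 9 described genes on all 12 arrays, 1 point per array, coloured by slide, with EGFP KD on grey and Mbd2 KD on yellow; each panel has its own vertical range. Irgm1, Msrb1 and Capn3 are lowest on the Mbd2 KD arrays, Slc6a9 and Phgdh are highest there, and for Gata4 the 2 EGFP KD arrays (-3.33 and -3.3) lie below the other 10.

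The largest differences shared by both Mbd2 KD arrays came from spots that lie close together on the array. The 10 genes with a symbol furthest above EGFP KD on both Mbd2 KD arrays were Cfap299, Hbb-bh1, Arl9, Trim40, Ms4a18, Olfr715b, Neu2, Adgrf4, Bcl2 and Camk2a, with log2 fold changes from 1.8 to 2.86. Of these, 9 had their spot in rows 280 to 350 and columns 34 to 42 of the array, a block with 1.42% of all spots. In 8 of the 10 the EGFP KD arrays themselves differed by over 1 log2 unit. Arl9, for example, read -1.36 and -0.19 in EGFP KD and 1.42 and 1.24 in Mbd2 KD, while the Dnmt1 KD arrays read -0.37 and 1.51 and the Mbd3 KD arrays -0.5 and 1.17.

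The spots of the lowest genes were also clustered. The 10 genes with a symbol furthest below EGFP KD on both arrays were Tex33, Kdm3b, Cacng8, Gas7, 1700003M07Rik, Cadps2, Irgm1, Vmn1r57, Cyp4f14 and Olfr1352, with log2 fold changes from -1.54 to -0.92. Of these, 5 lay in rows 30 to 65 and columns 65 to 85 (1.67% of spots) and 3 in rows 460 to 470 and columns 10 to 20 (0.277% of spots). Irgm1, in row 519 and column 44, and Kdm3b, in row 148 and column 1, lay outside both blocks. For Kdm3b, a histone H3K9 demethylase, EGFP KD replicate 1 read -0.21 and replicate 2 read -2.58, next to -2.67 and -2.77 in Mbd2 KD. When the local median of neighbouring spots of like brightness was subtracted on each array, the EGFP KD pair came closer, from a median difference of 0.288 to 0.219, and the Mbd2 KD pair from 0.326 to 0.253. After this step the 10 higher genes ranged from 1.08 to 2.38 and the 10 lower genes from -1.31 to -0.32, and 0 genes were called. Irgm1 then stood at -1.31 (SE 0.55), Slc6a9 at 0.63 (SE 0.22) and Gata3 at -0.8 (SE 0.15). For Phgdh, Psat1, Chac1, Tars2 and Msrb1 too few neighbouring spots had a like brightness, so nothing was subtracted and their position effect could not be assessed in this way. The same held for 8.43% of the genes tested.

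**Figure D5:**
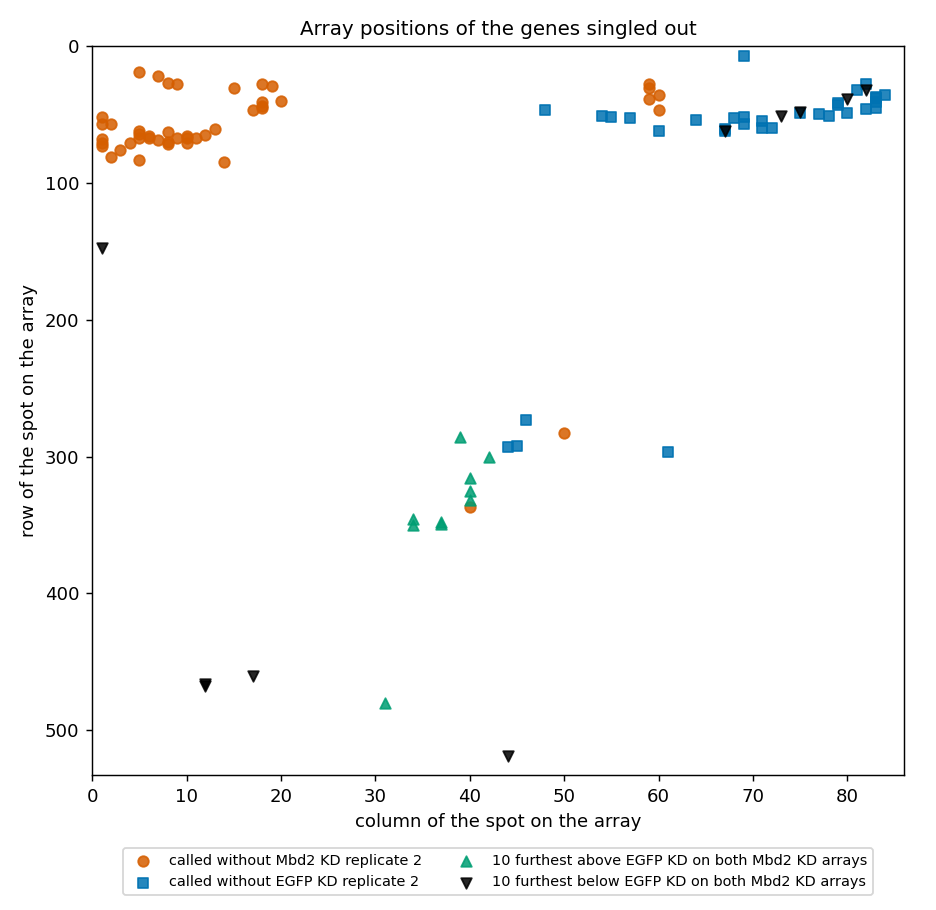
Row and column on the array of the spots of the 10 genes furthest above (green) and below (black) EGFP KD on both Mbd2 KD arrays, of the 46 genes called without Mbd2 KD replicate 2 (orange) and of the 33 called without EGFP KD replicate 2 (blue). The points gather in a few blocks, with 44 of the 46 orange and 29 of the 33 blue points in rows 1 to 90.

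Single arrays decided the calls that could be made. Without Mbd2 KD replicate 2, 46 genes were called, 45 of them higher, and 44 had their spot in rows 1 to 90 of the array, which hold 16.4% of spots. Baiap2l1, an actin-bundling adaptor, was one of them and read -3.69 and -3.44 in EGFP KD, 0.4 on replicate 1 and -3.48 on replicate 2. Without EGFP KD replicate 2, 33 genes were called, 29 of them lower, and 29 of the 33 lay in those rows. Without Mbd2 KD replicate 1, 7 genes were called, and without EGFP KD replicate 1, 6. Crip2 and Pkp2 were among the 6, at -4.86 on EGFP KD replicate 2 and between 2.1 and 3.82 on the other 3 arrays. After subtraction of the local median these counts were 22, 0, 2 and 6 in the order given, the last of them no smaller than before.

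For some genes the Mbd2 KD arrays lay on opposite sides of the EGFP KD mean. Ltb4r1, a leukotriene B4 receptor, read -2.59 and 0.75 in EGFP KD and -2.67 and 0.8 in Mbd2 KD. Tdpoz9, C1d, Olfr469 and Ston1 shared this split, with replicate 2 above replicate 1 by 3.19 to 3.93 in Mbd2 KD and by 2.74 to 4.06 in EGFP KD over the 5 genes. The split followed the slide, since for all 5 every array of slide 1 read below every array of slides 2 and 3. Ltb4r1, for example, lay between -2.67 and -1.31 on slide 1 and between 0.39 and 1.05 on the other slides. Among the 5 genes with replicate 1 higher, Hnf4aos, E2f4, Pstpip2, Fmo5 and Tac1, the Mbd2 KD arrays differed by 1.51 to 2.51 and the EGFP KD arrays by 0.73 to 2.13. In Hnf4aos, E2f4 and Pstpip2 the EGFP KD arrays split the same way, and in Fmo5 and Tac1 the opposite way. For Hnf4aos and E2f4 every array of slide 1 read above every array of the other slides. The log2 fold changes of these 10 genes lay between -0.19 and 0.53.

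Genes of the methylation machinery were read from fixed lists. Of 13 methyl-CpG readers tested, 0 were above and 2 below the EGFP KD range (0% and 15.4%, against 10.9% and 11.9% of all genes). Mbd2, by its second probe, was among those below, and the median log2 fold change of the list was -0.07. Of 20 NuRD subunits and partners, 4 lay above and 3 below (20% and 15%, against 10.9% and 11.9% of all genes). Those above were Chd4, Hdac1, Rbbp7 and Sall1, with log2 fold changes of 0.18 (SE 0.24), 0.38 (SE 0.25), 0.29 (SE 0.17) and 0.31 (SE 0.23). Hdac1 read 4.8 and 4.74 in EGFP KD and 4.92 and 5.38 in Mbd2 KD, and its probe was saturated on at least 1 of the 4 arrays. After local subtraction Hdac1 and Rbbp7 were at 0.02 each and Sall1 at 0.16, and Hdac1 turned to -0.12 under normexp background correction with quantile normalization. Of those below, Prmt5, an arginine methyltransferase reported with MBD2, read 3.4 and 3.25 against 2.9 and 3.15, and Pwwp2a and Bend3 had log2 fold changes of -0.26 and -0.08. Mbd3 read 4.32 and 4.49 in EGFP KD and 4.29 and 4.36 in Mbd2 KD.

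Of 20 genes of DNA methylation and demethylation, 6 lay above the EGFP KD range (30% against 10.9% of all genes) and Tet1 below it. Dnmt3b, a de novo methyltransferase, was the highest 2 of 12 at 4.76 and 4.94 against 4.65 and 4.71 in EGFP KD, on a probe saturated on at least 1 of these arrays, and its log2 fold change of 0.17 turned to -0.18 under normexp with quantile normalization. Dnmt3a, Uhrf2, Trim28 (also saturated on at least 1 array), Gadd45a and Mgmt had log2 fold changes from 0.2 to 0.37, with Gadd45a at -0.03 under normexp, and none of the 20 reached an unadjusted p under 0.05. Of the 6 genes above the range, 5 had their spot in rows 1 to 90, all but Dnmt3a. Local subtraction took Uhrf2 from 0.27 to 0.06, Gadd45a from 0.36 to 0.09, Mgmt from 0.37 to 0.27 and Dnmt3a from 0.2 to 0.43, and could not be made for Dnmt3b and Trim28. Dnmt1 was lower on 1 array only. It read 1.06 and 1.13 in EGFP KD, 0.18 on Mbd2 KD replicate 1 and 1.15 on replicate 2. The arrays labelled Tet1 KD read 1.14 and 0.42 for Dnmt1, replicate 2 being the one with low Tet1, and the Dnmt1 KD arrays -0.54 and -1.24.

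Of 29 germline genes that promoter methylation is known to silence, 2 lay above the range and 5 below (6.9% and 17.2%, against 10.9% and 11.9% of all genes). Their median log2 fold change was 0.03, against 0 for all genes. Wfdc15a, a protease inhibitor gene of this list, read -2.29 and -2.3 against -1.93 and -1.84 (log2 fold change 0.41, SE 0.1). Dazl and Mael, an RNA-binding protein and a piRNA factor of germ cells, were at -0.25 (SE 0.19) and -0.24 (SE 0.12), which became 0 and -0.12 after local subtraction. Of 37 imprinted genes, 3 were above and 2 below (8.11% and 5.41%, against the same 10.9% and 11.9% of all genes, median -0.03). Ndn, expressed from the paternal copy, read -1.86 and -1.94 against -1.73 and -1.59, and Zim1 was near the lowest level on all arrays, at -4.36 and -4.13 against -4.76 and -4.86.

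Two-cell-stage genes differed between the Mbd2 KD arrays. The median of 18 such genes was -0.16 on replicate 1 and 0.55 on replicate 2, and 14 of the 18 were above the EGFP KD mean on replicate 2 against 5 on replicate 1, whereas over all 29839 genes 14367 were above it on replicate 2 and 11245 on replicate 1. Zscan4f, a telomere factor of the two-cell-like state, read 1.26 and 1.37 in EGFP KD, 0.88 on replicate 1 and 2.35 on replicate 2. Gm4340 read 0.68 and 0.75, then 0.69 and 2.23, and Zscan4c 0.38 and 0.39, then -0.02 and 1.03. On the other slide 3 arrays Zscan4f lay between -0.12 and 1.3, and the nearest value of any array was 2.22 on the array labelled Tet1 KD replicate 1. These genes have near-identical copies that a probe may not separate, and no test over them is given.

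Lineage genes showed no common direction. Of 28 pluripotency genes, 3 lay above and 1 below the EGFP KD range (median 0.05). Klf5, a self-renewal factor, read 3.29 and 3.19 against 3.71 and 3.46 (log2 fold change 0.34, SE 0.13). Sox2 read 2.41 and 2.32 against 2.46 and 2.98 (log2 fold change 0.36, SE 0.23), so replicate 2 carried most of the difference. Lefty2, a Nodal antagonist, read 1.52 and 1.68 against 1.2 and 1.39 (log2 fold change -0.31, SE 0.22). Local subtraction could not be made for Sox2, whose spot is in row 52, or for Lefty2. Of 18 primitive endoderm genes 4 were above (22.2% against 10.9% of all genes) and 0 below. Gata4, which specifies that lineage, read -3.33 and -3.3 against -2.18 and -2.02 (log2 fold change 1.22, SE 0.33). Its spot lies in row 303 and column 43, next to the block that holds 9 of the 10 genes furthest above EGFP KD, and local subtraction left 0.66 (SE 0.22). The 8 arrays of the other KDs read between -2.64 and -1.19 for Gata4, so the EGFP KD arrays were the lowest.

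Of 18 trophectoderm genes 0 were above and 5 below the range (27.8% against 11.9%), with a median of -0.14. Gata3 read -3.88 and -4.12 in EGFP KD and -4.7 and -4.72 in Mbd2 KD (log2 fold change -0.71, SE 0.12, limma unadjusted p of 0.0004954, adjusted p of 1), close to the lowest level, and the probe was well above background on 3 of the 4 arrays. The arrays of Dnmt1 KD, Tet1 KD and Mbd3 KD all read -4.86 for it. Krt8, an epithelial keratin, read -1.51 and -1.49 against -1.96 and -1.79, a log2 fold change of -0.38 that became -0.6 after local subtraction. The others below the range, Gata2, Ets2 and Psca, went from -0.24 to -0.08, from -0.25 to -0.09 and from -1.08 to -0.46 in that step. The primed epiblast list had 1 above and 1 below of 16 (6.25% each, against 10.9% and 11.9% of all genes). Of 11 fibroblast genes 1 was above (9.09%, against 10.9%), Thy1, at 0.25 (SE 0.12).

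Of 29 interferon-stimulated genes and RNA sensors, a list to which Irgm1 was not assigned, 3 were above and 6 below the range (10.3% and 20.7%, against 10.9% and 11.9% of all genes). Gbp2, a guanylate-binding protein, had a log2 fold change of 1.4 (SE 0.68), which became 0.22 after local subtraction. Irf1 and Parp14 were at -0.28 (SE 0.13) and -0.42 (SE 0.24). Of 24 p53 targets 3 were above (12.5%, against 10.9% of all genes) and 0 below, among them Mdm2 at 0.36 (SE 0.26, or 0.04 after local subtraction) and Pmaip1 at 0.2 (SE 0.12). Mdm2 read 2.37 and 2.47 in EGFP KD and 2.53 and 3.02 in Mbd2 KD. Of 12 polycomb subunits 1 was above and 2 below (8.33% and 16.7%, against 10.9% and 11.9% of all genes). Those below were Ezh1 at -0.2 and Aebp2 at -0.36 (SE 0.21), the latter -0.14 after local subtraction. Of 33 Hox genes 5 were above and 3 below (15.2% and 9.09%, against the same 10.9% and 11.9%), with a median of 0. From the loci and primers that the study names, 14 genes were tested as a list, without Mbd2, whose probes are given above. Chd4 lay above and Tet1 below the range (7.14% each, against 10.9% and 11.9% of all genes). The others in the list, Pitx1, Tfap2a, Hoxd3, Trh and Gapdh among them, overlapped the range.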

How the data were processed

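E14 ES cells were profiled on 12 one-colour Agilent arrays, 2 for each of 6 KDs. The authors deposited scanner output from Agilent Feature Extraction 10.7.1.1 with the background-subtracted processed intensity of each spot. They also deposited log2 ratios against EGFP KD, with no EGFP KD column and an unstated scale, which were used only for a count of calls. Groups came from the labels. The study calls its replicates biological. Where dishes were not independent, p-values measure technical spread.

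Here 1377 control spots and outlier spots were left out, each array was divided by its 75th percentile, floored at 0.0344 and log2 transformed. Spots of a probe were averaged, and a probe was kept if it stood well above background in both replicates of 1 or more groups. The brightest probe stood for a gene, the 4 Mbd2 and Tet1 probes were fitted singly, and accessions were named through the RefSeq gene table of GRCm38.p6 (71.4% of spots then had a name). limma 3.58.1 (R 4.3.3) fitted 6 groups over 12 arrays, without blocks, and alternatives changed the normalization, filter, probe rule, variance prior, array weights, blocks and arrays. The p-values were adjusted by Benjamini-Hochberg over 29839 genes. The steps were tested on simulated data. The number of arrays limits the precision.

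Members, lists and tests were chosen with earlier results of these data known. Named genes were every Mbd2 and Tet1 probe, list members outside the EGFP KD range, 10 rises and 10 falls by the smaller of their distances from the EGFP KD mean on the 2 arrays, 5 and 5 genes of opposite sign, and the 5 smallest unadjusted p (Irgm1, Slc6a9, Gata3 and 2 features without a symbol here, ENSMUST00000110178 and AK043445). Genes of amino acid metabolism, Msrb1, Capn3, Zscan4f, Zscan4c, Gm4340 and the genes called without an array were picked after their values were seen, as were the blocks of rows and columns. The local median, on the log2 scale, was taken over at least 10 spots within 8 rows and 4 columns and 1 log2 unit of mean level, with nothing subtracted where there were fewer. This step was added after the data were seen.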

Additional observations from a re-analysis of the deposited data

How the results depend on the processing

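No gene was called under the other normalizations, filters, probe rules, blocks, priors or weights, nor at an adjusted p under 0.1. With the replicate block the count was 0, with 1108 genes at an unadjusted p under 0.05 against 613 without it, and Mbd2 and Tet1 probes kept -1 and -0.98. The numbers do not mark shared batches in the labels. The deviations of same-numbered arrays from their group means correlated at 0.506 over genes, which cannot establish pairing with 2 numbers. With slide as a fixed block 1337 genes, and as a random block 1076, had an unadjusted p under 0.05. Leaving out 1 array gave 6 to 46 calls, and 0 to 22 with the local median subtracted (22 without Mbd2 KD replicate 2, 6 without EGFP KD replicate 1, 2 without Mbd2 KD replicate 1). The deposited ratios tested against 0, which leaves out the control's spread, gave 12 calls in 12459 rows. Mbd2 ranged from -1.77 to -0.23 and Tet1 from -1.78 to -0.19 with 1 array left out, and the mean of the probes gave -0.54 and -0.72. Genes outside the EGFP KD range numbered 6757, or 289 at a distance of at least 0.5, and 13609 to 20733 with 1 array left out, where fewer arrays make the criterion easier. Signs turned for Hdac1 (-0.12), Dnmt3b (-0.18) and Gadd45a (-0.03) under normexp, for Chd4 (-0.07) and Zscan4c (-0.04) with slide fixed and Zscan4c (-0.01) with slide random, for Dnmt1 (0.06) without Mbd2 KD replicate 1, and for Zscan4c (-0.41), Zscan4f (-0.43) and Gm4340 (-0.02) without Mbd2 KD replicate 2. Leaving out 1 array, these genes ranged from -0.91 to 0.06, -0.41 to 0.65, -0.43 to 1.04 and -0.02 to 1.51. The causes were not tested. Dim probes near -4.86 limit what can be measured.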

Other observations

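Some genes outside the lists were at the edge of all 12 arrays. On the high side, Nenf, a secreted neurotrophic factor, read 1.33 and 0.93 in EGFP KD and 1.54 and 1.74 in Mbd2 KD, and Zfp61, a zinc finger gene, read 0.23 and 0.15 against 0.59 and 0.63. Their spots lie in rows 49 and 41 of the array, and after subtraction of the local median their log2 fold changes went from 0.51 to 0.21 and from 0.42 to 0.4. Of the 10 genes with a symbol that stood highest of 12 by the smaller distance from EGFP KD, 7 had their spot in rows 1 to 90, which hold 16.4% of spots, and of the 10 lowest, 1 did.

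On the low side, Fstl3, a follistatin-like activin antagonist, read -1.89 and -1.63 in EGFP KD and -2.23 and -2.2 in Mbd2 KD, and Lmtk3, a membrane kinase, read -0.97 and -1.01 against -1.49 and -1.5. Slc30a4, a zinc transporter, read -1.5 and -1.99 against -2.2 and -2.26. After the same subtraction Fstl3, Lmtk3 and Slc30a4 stood at -0.21, -0.27 and -0.23, from -0.45, -0.5 and -0.49. In limma, all 5 had an adjusted p of 1.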
